A study of Mus musculus with 6 samples.

Results

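The constitutive proteasome subunits are here the genes of the 20S core particle (Psma and Psmb genes) and of the 19S regulatory particle (Psmc and Psmd genes), without the interferon-induced catalytic subunits Psmb8, Psmb9 and Psmb10. They were taken by name from the 36930 features of the deposited tables, which gave 36 genes, 16 of the core particle and 20 of the regulatory particle. By name the set also holds Psma8 of the testis, Psmb11 of the thymus and the assembly chaperones Psmd5, Psmd9 and Psmd10, which are counted as subunits here. RNA was measured in regulatory T cells (Tregs) from the bone marrow (BM) of mice with a chronic myeloid leukemia (CML)-like disease and of naive mice. All mice were Foxp3-DTR-GFP animals of 8 weeks, in which the Foxp3 locus, the lineage gene of Tregs, drives a diphtheria toxin receptor and GFP. In the CML group (n = 3), stem and progenitor cells (LSKs) transduced with BCR-ABL1-GFP had been injected i.v. into recipients that were not irradiated, and Tregs were taken at day 15, whereas the naive group (n = 3) carried no leukemia. Tregs were purified by FACS, and in CML mice both the Foxp3 locus and the leukemic cells carry GFP. Each library came from 1 mouse.

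The proteasome is the protease that degrades proteins marked with ubiquitin. Its core particle is a barrel of α rings, which guard the entrance, and β rings, which hold the proteolytic sites, and its regulatory particle binds the ubiquitin chain, removes it, unfolds the substrate and threads it into the barrel. T cells rely on it to remove cell cycle regulators and the inhibitors of NF-κB and to make peptides for MHC class I. The comparison addressed whether transcripts of this machine differed between Tregs of CML and naive mice, for the core and the regulatory particle apart.

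The libraries differed in depth. Estimated reads were 829181 to 7613827 in CML libraries and 5187987 to 9751911 in naive libraries, and CML replicate 2 was the shallowest. In that library, the 10 highest features held 50.7% of the summed values, against 28.5% to 31.3% in the others. The Treg markers (8 of 8 genes listed, Foxp3 and Il2ra among them) summed to 1884 to 2579 RPKM (reads per kilobase of gene, scaled to the size of the library) in CML and 1838 to 2075 RPKM in naive libraries. Of the summed markers of other marrow cells, only those of red cells did not overlap between groups. Red cell markers (8 of 10 listed in the tables) summed to 35.6 to 206 RPKM in CML and 5.01 to 29.6 RPKM in naive libraries with no overlap, and Epor was at 0 in all. Neutrophil markers (10 of 10 listed) were at 12.0, 213 and 232 RPKM in the CML libraries, in the order of their replicate numbers as in every series of 3 values given here, and at 32.6 to 54.3 RPKM in naive libraries, and Ly6g was at 0 in all. Macrophage (33.9 to 61.3 against 35.6 to 56.8 RPKM), CD8 and NK (66.2 to 79.9 against 37.8 to 76.1 RPKM), stem and progenitor (43.6 to 51.0 against 25.2 to 48.1 RPKM) and stress markers (1777 to 2426 against 1827 to 3371 RPKM) overlapped between CML and naive libraries. B cell markers did too, at 3.18 to 8.80 and 8.42 to 10.7 RPKM, and Pax5, Vpreb1 and Ebf1 were at 0 in all. The part of these cells in the differences given here was not tested, and in bulk RNA a different number of cells of a type and a different amount of RNA per cell cannot be told apart.

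Reads of 34 of the 36 subunits were found in every library. Psma8, an α subunit of the testis, and Psmb11, the β subunit of the thymic cortex epithelium, had no reads in any of the 6 libraries. The 34 subunits spanned a 13.0-fold range of mean level, from Psmb5 at 10.9 RPKM to Psmd4, the ubiquitin receptor of the regulatory particle, at 141.9 RPKM. The median over genes of the mean level across the 6 libraries was 50.2 RPKM for the 14 core genes with reads. It was 37.3 RPKM for the 20 regulatory genes. In the core particle, Psmb1, a structural β subunit, was the highest with 113, 143 and 134 RPKM in CML mice 1 to 3 and 101, 139 and 109.5 RPKM in naive mice 1 to 3, by replicate number. In the regulatory particle, Psmd9, a chaperone that helps to assemble the base, was the lowest with 3.73, 23.4 and 13.7 RPKM in CML and 12.7, 9.54 and 11.04 RPKM in naive libraries. Neighbours in the order of levels often could not be told apart, as for Psmb6 (44.6 RPKM) and Psmd14 (44.4 RPKM), whose libraries spanned 34.6 to 62.2 RPKM and 33.9 to 55.6 RPKM. The order of the 34 levels was most alike among naive libraries, with Spearman correlations across genes of 0.82 to 0.94. They were 0.57 to 0.89 between CML and naive libraries and 0.51 to 0.80 among CML libraries. The low values were those of CML replicate 2, at 0.51 to 0.64 in every pair. CML replicates 1 and 3 had 0.80 to 0.89 with naive libraries and 0.80 with each other. These correlations describe the libraries, whose genes share depth and are not independent.

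**Figure D1:**
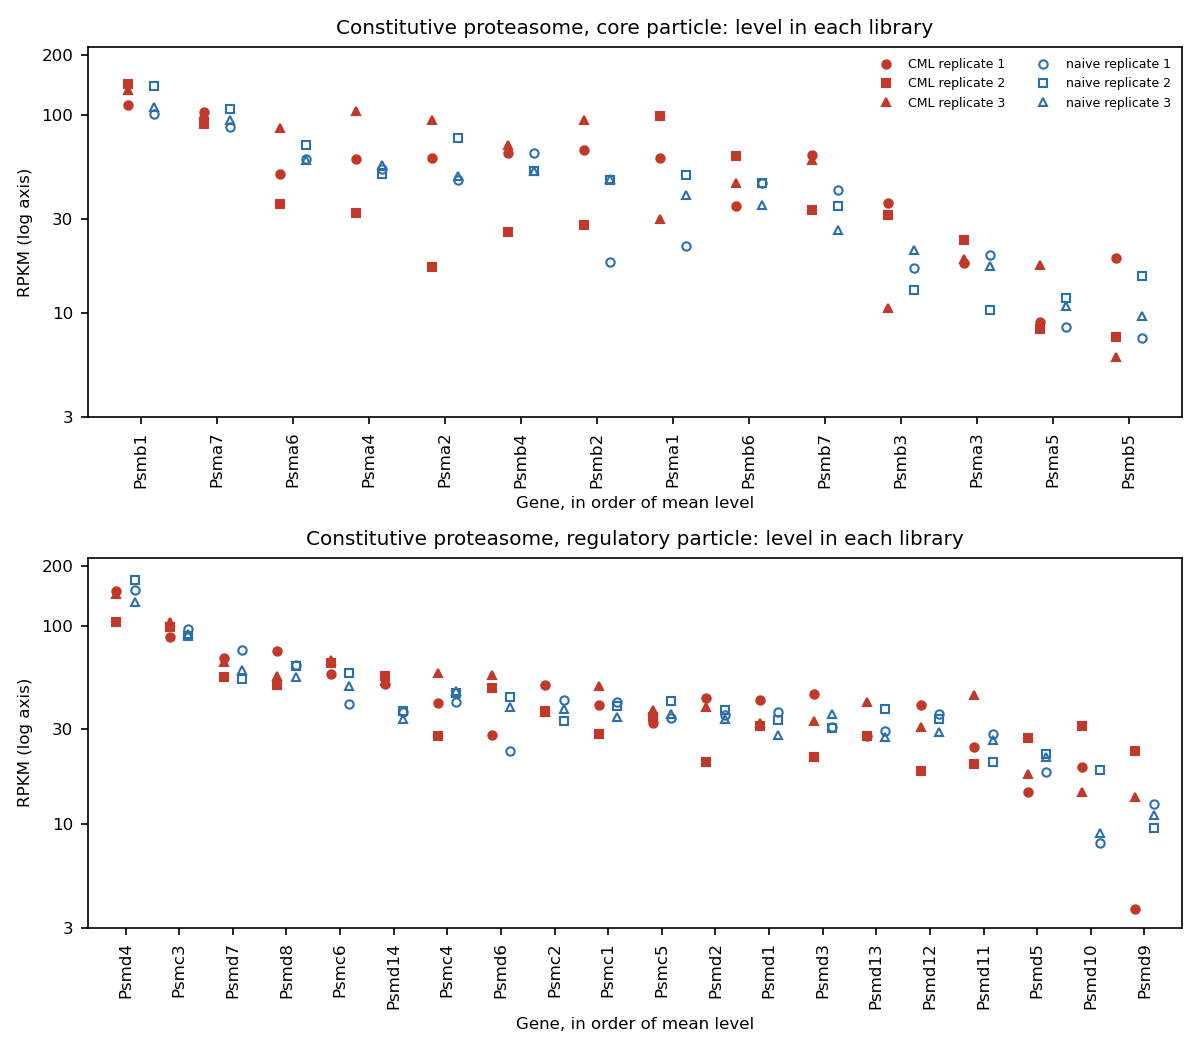
Level of each of the 34 constitutive subunits with reads in each library, in RPKM on a log axis, with the core particle above and the regulatory particle below and genes in order of mean level. Filled red symbols are CML and open blue symbols naive libraries, with 1 symbol shape for each replicate number. Psmd14 is the only gene whose 3 CML libraries all lie above the 3 naive libraries, and CML replicate 2 (squares) lies farthest from the other CML libraries for Psma2.

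No constitutive subunit passed an adjusted p under 0.05 with a fold of at least 1.5 between CML and naive Tregs in limma, with Benjamini-Hochberg adjustment over all 13923 features tested. Over all these features, 0.172% passed. At an unadjusted p under 0.05, 1 of the 34 subunits was higher in CML (Psmd14), against 2.92% of all features, and 0 were lower, against 6.77% of all features. Psmd14 was also the only subunit without overlap of its CML and naive libraries, while 4.84% of all features were higher and 12.2% lower without overlap. The fitted differences on the log2(RPKM + 1) scale ran from -0.27 (Psma2) to 0.84 (Psmd10), with 20 of 34 above 0.

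The subunits lay within a narrower band than features at large, but the 2 sets differ in level. The subunits had mean levels of 10.9 to 141.9 RPKM. The 13923 features went down to a mean of 1 RPKM, and 10047 features had a mean of at least 5 RPKM. The part of level in this contrast was not tested. A fold of at least 1.5 in either direction was fitted for 3 of the 34 subunits (8.82%), namely Psmd10, Psmb2 and Psma1, against 31.1% of all features. The 95% interval of the fold stayed within 2-fold in both directions for 22 of the 34 subunits (64.7%), against 29.4% of all features. It did so for 17 of the 20 regulatory genes and for 5 of the 14 core genes. For the other 12 genes, a 2-fold difference could not be told from none with 3 mice in a group. The median difference was 0.05 for the subunits and -0.18 for all features tested, so that 29 of the 34 subunits lay above the median of all features. Where libraries were set to the same median, these medians were 0.20 and -0.03, and 29 of 34 subunits again lay above that of all features. Without CML replicate 2, the medians were 0.19 for the subunits and -0.03 for all features tested, and 30 of 34 subunits lay above the latter. Over all alternative settings 26 to 32 of the 34 subunits did.

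**Figure D2:**
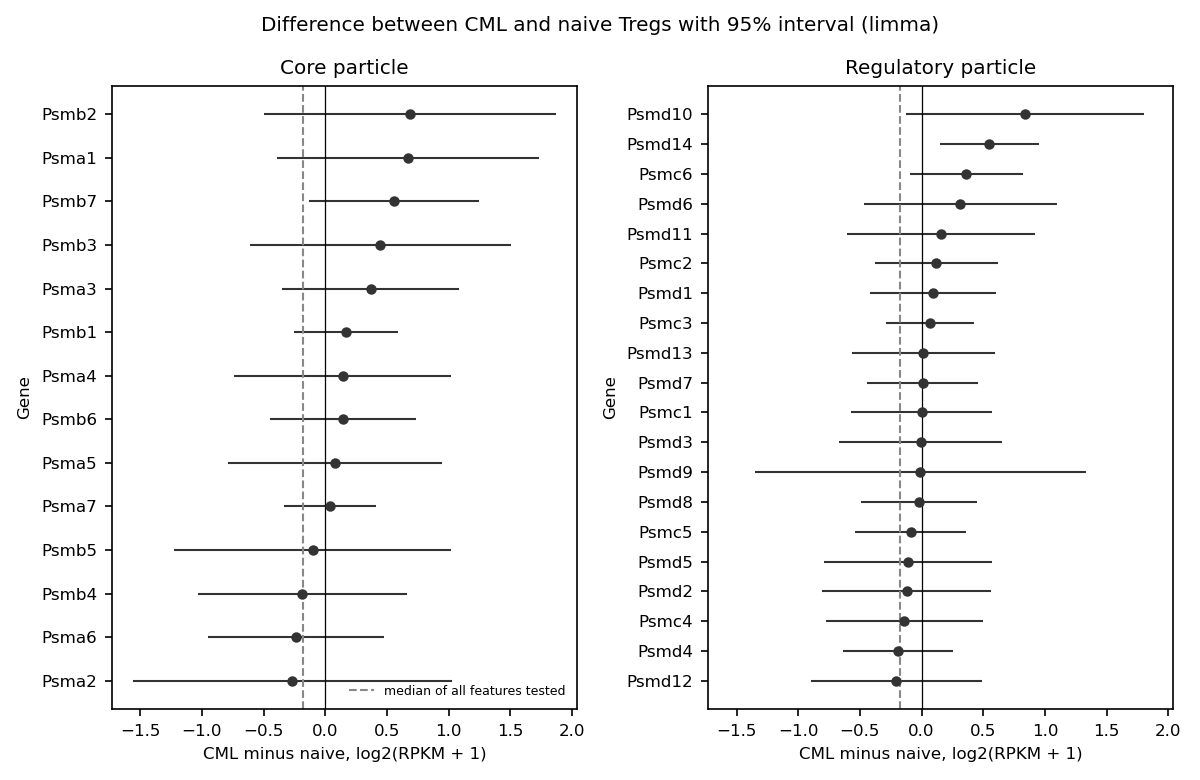
Difference between CML and naive Tregs for each constitutive subunit on the log2(RPKM + 1) scale, with points for the limma estimate and bars for the 95% interval. The dashed line is the median of all 13923 features tested (-0.18). Of the 34 intervals, that of Psmd14 (0.15 to 0.95) is the only one that leaves out 0.

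In the core particle, the median difference was 0.14, with 10 of 14 genes above 0. Summed over the 14 genes, the core particle reached 759, 638 and 872 RPKM in CML libraries and 592, 724 and 627 RPKM in naive libraries. The groups overlapped, at 756 ± 117 (SD, n = 3) and 648 ± 68.3 RPKM, a ratio of 1.17. The 20 regulatory genes had a median difference of 0.00, with 10 above 0 and 10 below. They summed to 938, 826 and 995 RPKM in CML and 879.6, 917 and 837 RPKM in naive libraries, or 920 ± 86.2 and 878 ± 40.3 RPKM, a ratio of 1.05. Here too the groups overlapped. The sum of the regulatory genes over that of the core genes was 1.24, 1.30 and 1.14 in CML and 1.49, 1.27 and 1.34 in naive libraries.

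The core genes had larger spreads between mice than the regulatory genes. The median SD on the log2 scale was 0.70 among CML and 0.28 among naive libraries for core genes, and 0.36 and 0.17 for regulatory genes. Over all features tested it was 0.53 and 0.29. For 29 of the 34 subunits, value times coding length times library size fell on whole reads in every library, so that the reads behind each value could be counted. The median subunit then had 361, 31 and 120 reads in CML replicates 1, 2 and 3, and 180, 378 and 389 reads in naive replicates 1, 2 and 3. In CML replicate 2, 6 of these 29 subunits lay more than 1 log2 unit from the mean of the other CML libraries, 2 above it (Psma1 and Psmd9) and 4 below it (Psma2, Psma4, Psmb2 and Psmb4). Psma2, an α ring subunit, was the farthest, at 17.1 RPKM there against 60.6 and 94.3 RPKM in the other CML libraries. It had 10 reads in CML replicate 2 (exact Poisson 95% interval 4.80 to 18.4), where the level of the other CML libraries would have given 44.2 reads. The part of depth in this spread was not tested.

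**Figure D3:**
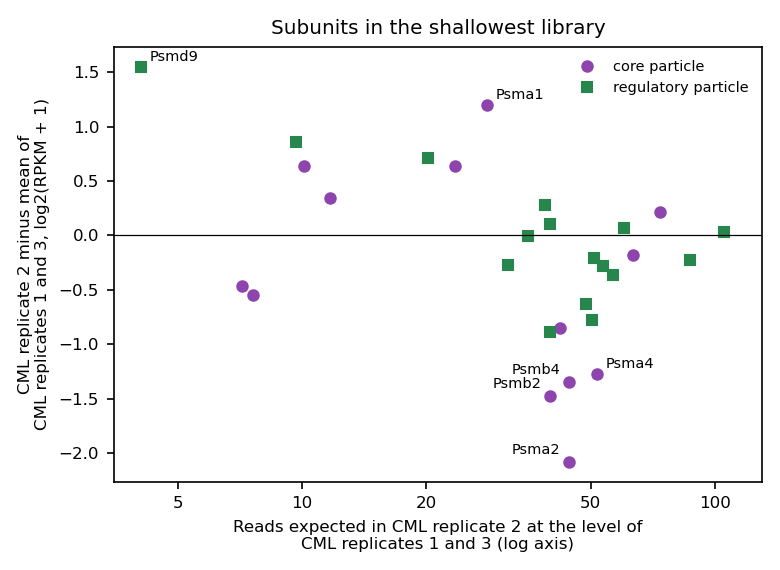
Reads that each of the 29 subunits with whole reads would have had in CML replicate 2 at the mean level of CML replicates 1 and 3 (x axis, log scale), against its deviation in CML replicate 2 from that mean (y axis, log2(RPKM + 1) units). Circles are core and squares regulatory genes. The deviations run from -2.08 (Psma2) to 1.55 (Psmd9), and the 4 genes below -1 are all core genes.

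Psmd14 (Rpn11), the deubiquitinase of the regulatory particle lid that cuts ubiquitin chains off substrates before they enter the core, had the smallest p of the 34 subunits. Its gene lies at chr2:61711694-61800376 (GRCm38, GENCODE M21). Its level was 50.8, 55.6 and 52.5 RPKM in CML libraries, from 361, 43 and 112 reads, and 36.8, 37.0 and 33.9 RPKM in naive libraries, from 178, 303 and 308 reads. All 3 CML libraries were thus above all 3 naive libraries, and both groups were tight. The means were 53.0 ± 2.41 and 35.9 ± 1.76 RPKM (SD, n = 3 each), and the fold was 1.46 (95% interval 1.11 to 1.94), with a log2 difference of 0.55 (SE 0.17). The limma p was 0.0139 and the adjusted p 0.362, so the difference failed the correction over all features, and the exact 2-sided permutation test gave 0.1, the smallest p that 3 against 3 allows. Across the alternative settings the log2 difference was 0.51 to 0.69 and the limma adjusted p 0.263 to 0.888. Without naive replicate 3, the unadjusted limma p rose to 0.0595. The counting error of its CML replicate 2 value was larger than the scatter among the libraries, as 43 reads have an exact Poisson 95% interval of 31.1 to 57.9 reads.

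The other lid subunits did not share this pattern. The 8 lid genes (Psmd3, Psmd6, Psmd7, Psmd8, Psmd11, Psmd12, Psmd13 and Psmd14) had a median difference of 0.01, between -0.20 for Psmd12 and 0.55 for Psmd14, and 7 of the 8 overlapped between groups. Psmd7 (Rpn8), the inactive partner with which Psmd14 pairs, had 68.8, 54.9 and 65.2 RPKM in CML and 75.02, 53.8 and 59.98 RPKM in naive libraries. Its group means were 63.0 ± 7.20 and 62.9 ± 10.9 RPKM, a fold of 1.01 (95% interval 0.73 to 1.38). The contrast between Psmd14 and Psmd7 was not tested.

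In the base, the 6 ATPases Psmc1 to Psmc6, which form the ring that unfolds substrates, had small differences. Their median difference was 0.03, and the 95% intervals of all 6 stayed within 2-fold. Psmc3 had 87.3, 98.0 and 105 RPKM in CML and 96.0, 88.3 and 91.1 RPKM in naive libraries. Psmc6 (Rpt4) was the ATPase with the largest difference, at 57.3, 64.9 and 66.9 RPKM in CML and 40.03, 58.0 and 49.8 RPKM in naive libraries. Of the CML libraries only replicate 1 fell within the naive range, and the log2 difference was 0.36 (SE 0.20, limma adjusted p = 0.592). The ring therefore showed no member past the test.

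Of the base subunits without ATPase activity, Psmd1 and Psmd2 are the large scaffolds and Psmd4 (Rpn10) holds the ubiquitin chain. Psmd4 had 149.7, 105 and 145 RPKM in CML and 151, 170.1 and 131 RPKM in naive libraries. The log2 difference was -0.19 (SE 0.19, limma adjusted p = 0.756), it stayed below 0 under every scaling tried, and the groups overlapped. The base chaperones Psmd5, Psmd9 and Psmd10 leave the complex before it is finished. Psmd10 (gankyrin), which is also known as an oncoprotein that binds the retinoblastoma protein, had 19.4, 31.2 and 14.5 RPKM in CML, from 103, 18 and 23 reads, and 8.03, 18.7 and 8.99 RPKM in naive libraries, from 29, 114 and 61 reads. Naive replicate 2 lay within the CML range. The fold of 1.79 was the largest of the 34 subunits, with a 95% interval of 0.92 to 3.49 and a limma adjusted p of 0.566. Psmd5 and Psmd9 had differences of -0.11 and -0.01, and Psmd9 was the subunit with the widest interval of the regulatory particle, 0.39-fold to 2.52-fold.

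Among the catalytic β subunits, Psmb5 carries the chymotrypsin-like site, Psmb6 the caspase-like site and Psmb7 the trypsin-like site. Psmb5, the main target of proteasome inhibitors, was the lowest subunit of the core, at 19.0, 7.58 and 6.05 RPKM in CML, from 115, 5 and 11 reads, and 7.52, 15.5 and 9.68 RPKM in naive libraries, from 31, 108 and 75 reads. The groups overlapped, and the direction of its log2 difference of -0.10 (SE 0.48, limma adjusted p = 0.953) turned under some scalings. Psmb6 had 34.6, 62.2 and 45.1 RPKM in CML and 45.2, 45.6 and 35.0 RPKM in naive libraries, a log2 difference of 0.14 (SE 0.26, limma adjusted p = 0.871) that fell below 0 without CML replicate 2. Psmb7 was at 62.7, 33.3 and 59.3 RPKM in CML, from 398, 23 and 113 reads, and at 41.6, 34.6 and 26.3 RPKM in naive libraries, from 180, 253 and 214 reads. CML replicates 1 and 3 were above all naive libraries, and CML replicate 2, with the fewest reads, lay within their range.

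The log2 difference of Psmb7 was 0.56 (SE 0.30, limma adjusted p = 0.587), with a fold of 1.47 (95% interval 0.91 to 2.37). With 1 library left out it was between 0.39, without naive replicate 3, and 0.84, without CML replicate 2, and the limma adjusted p was 0.242 to 0.894. The summed level of the 3 catalytic genes was 116, 103 and 110.5 RPKM in CML and 94.3, 95.7 and 71.0 RPKM in naive libraries, without overlap. Each of the 3 genes alone overlapped between groups, and 4.84% of all single features were higher in CML without overlap. The sum was not tested. Its means of 110 ± 6.63 and 87.0 ± 13.9 RPKM stood in a ratio of 1.26. Most of this difference came from Psmb7, whose group means were 51.7 ± 16.1 and 34.2 ± 7.65 RPKM. Exons of Psmb7 overlap those of Nek6 on the other strand, exons of Psmb5 overlap Mir686, and RefSeq names pseudogene copies of Psma5, Psmb5, Psmb6 and Psmb7 that the deposited tables do not list, so the reads of these 4 genes may be shared with copies.

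**Figure D4:**
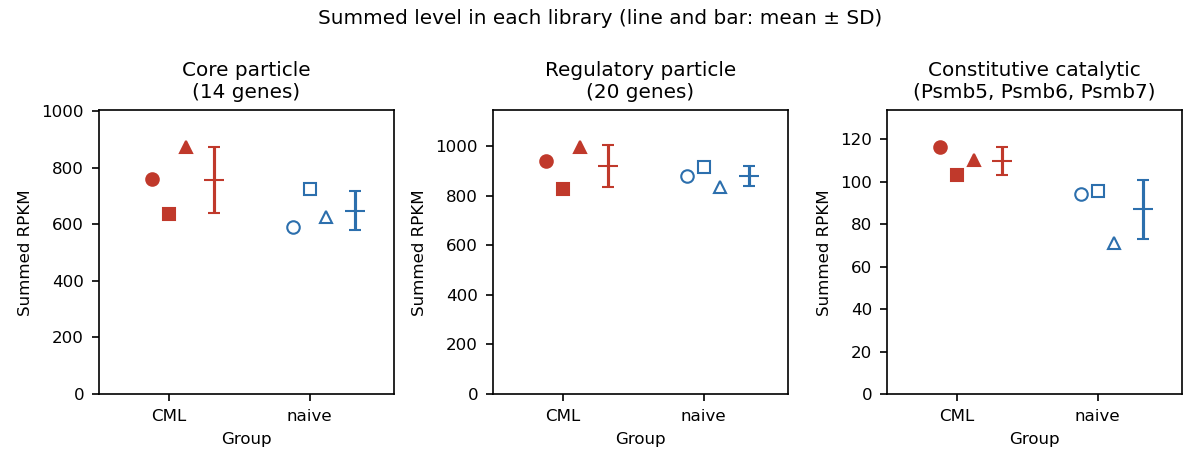
Summed RPKM of the core particle, the regulatory particle and the 3 constitutive catalytic subunits in each library, with each axis from 0, filled red symbols for CML and open blue symbols for naive libraries, and the mean ± SD of each group (n = 3) beside them. The groups overlap for both particles, and the 3 CML libraries (103 to 116 RPKM) lie above the 3 naive libraries (71.0 to 95.7 RPKM) for the sum of the catalytic subunits. Each of these 3 genes alone overlaps between groups.

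The other core genes with the smallest p were Psma1, Psmb2 and Psma3. Psma1, an α ring subunit, had 60.9, 99.0 and 29.8 RPKM in CML and 21.9, 49.7 and 39.5 RPKM in naive libraries, a log2 difference of 0.67 (SE 0.46, limma adjusted p = 0.660). Psmb2, a structural β subunit, had 66.8, 27.9 and 93.8 RPKM in CML and 18.1, 46.8 and 47.7 RPKM in naive libraries, a log2 difference of 0.69 (SE 0.51, limma adjusted p = 0.689). In both genes 2 CML libraries lay above all naive libraries and the remaining CML library lay within the naive range, but it was CML replicate 3 for Psma1 and CML replicate 2 for Psmb2. Psma3 had 18.0, 23.6 and 18.8 RPKM in CML and 19.6, 10.4 and 17.2 RPKM in naive libraries, a log2 difference of 0.37 (SE 0.31, limma adjusted p = 0.706). By role, the median difference was 0.08 for the 7 α ring genes with reads, 0.14 for the 3 catalytic genes and 0.30 for the 4 structural β genes Psmb1 to Psmb4. In limma, 0 genes of these roles passed an unadjusted p under 0.05, against 9.68% of all features in either direction. Psma7 had the narrowest interval of the core genes, at 104, 90.4 and 101 RPKM in CML and 86.7, 108 and 93.8 RPKM in naive libraries, a fold of 1.03 (95% interval 0.79 to 1.33).

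Interferon-induced subunits can replace the catalytic ones during assembly, which gives the immunoproteasome. Psmb8, the counterpart of Psmb5, had 308, 231 and 337 RPKM in CML and 302, 275 and 278 RPKM in naive libraries. It was thus at 16.2 to 55.8 times the level of Psmb5, with overlap of the groups. The ratios in CML replicates 2 and 3 (30.4 and 55.8) rest on 5 and 11 reads of Psmb5, which may be shared with copies. Psmb9 was 0.80 to 1.28 times the level of Psmb6 and Psmb10 was 1.11 to 2.16 times that of Psmb7. For the ratios of these 3 pairs, exact 2-sided permutation tests between CML and naive Tregs gave p = 0.9, 0.8 and 0.3, all 0.9 after Benjamini-Hochberg adjustment, in a design whose smallest p is 0.1. For Psmb10 over Psmb7, the ratio was 1.11, 1.90 and 1.67 in CML and 1.63, 2.01 and 2.16 in naive libraries.

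The other genes of the pathway comprised 36 genes: the immunoproteasome subunits, activators, assembly factors, further regulatory particle subunits, bound enzymes and transcription regulators. In limma, 0 of the 36 passed the adjusted threshold, and at an unadjusted p under 0.05, 0 were higher in CML and 1 (Psmg3) was lower. Over all features tested, these shares were 0.172%, 2.92% and 6.77%. The median difference of the 36 genes was -0.08. The activators and inhibitor Psme1 to Psme4 and Psmf1 had differences of -0.11 to 0.13. Nfe2l1 and Nfe2l2, transcription factors that raise proteasome genes when proteasome activity falls or under oxidative stress, had differences of -0.09 (SE 0.19, limma adjusted p = 0.886) and -0.06 (SE 0.23, limma adjusted p = 0.944). Akirin2, which carries proteasomes into the nucleus, was at 35.1, 39.8 and 73.6 RPKM in CML and 67.1, 74.9 and 67.5 RPKM in naive libraries. Its CML replicates 1 and 2 lay below all naive libraries and CML replicate 3 within them, for a log2 difference of -0.56 (SE 0.28, limma adjusted p = 0.568). Txnl1, a thioredoxin-like protein bound to the regulatory particle, was at 61.5, 61.0 and 51.3 RPKM in CML and 54.1, 40.8 and 44.7 RPKM in naive libraries (log2 difference 0.32, SE 0.19, limma adjusted p = 0.626), and its exons overlap those of Wdr7 on the other strand. Psmb10 had 69.7, 63.3 and 99.2 RPKM in CML and 67.9, 69.6 and 56.9 RPKM in naive libraries (log2 difference 0.23, SE 0.21, limma adjusted p = 0.727).

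The assembly factors of the core particle had lower fitted values in CML than in naive Tregs. Of these 5 genes, 0 passed the adjusted threshold in limma, against 0.172% of all features. At an unadjusted p under 0.05, 1 (Psmg3) was lower, against 6.77% of all features. All 5 (Psmg1 to Psmg4, which build the α ring, and Pomp, which matures the β rings) had negative differences, except Pomp with library weights (0.08) and without CML replicate 2 (0.39). Of all features tested, 64.3% were negative. The median of the 5 assembly factors was -0.98, and -0.36 without CML replicate 2. With Psmg3 set to its floor in CML replicate 1 or 3 it could not move, as Psmg3 stayed the lowest of the 5. With the difference of Psmg3 set to 0 it was -0.69. Psmg3 had no reads in any CML library and 9.40, 9.58 and 6.11 RPKM in naive libraries, from 18, 31 and 22 reads. Against a floor of 3 reads in a library, its naive mean of 8.36 ± 1.95 RPKM (SD, n = 3) was at least 7.83-fold higher than CML replicate 1 and at least 2.35-fold higher than CML replicate 3. In CML replicate 2, 3 reads would have been 9.81 RPKM, so that no difference was detectable at this depth. The limma p was 0.000132 and the adjusted p 0.0595, above the threshold, with adjusted p of 0.0272 to 0.415 across the alternative settings. Psmg3 passed the filter on the mean through its naive libraries alone. Its spread of 0 in CML came from libraries without reads, CML replicate 2 among them, so these p-values are no support for a difference. Psmg3 was listed at 0 in 3 of 3 CML libraries and the exact 2-sided permutation p was 0.1. The gene lies at chr5:139823613-139826894 (GRCm38), and exons of Psmg3 overlap those of Gm26938 on the same strand, so its reads may not be its own alone.

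The other 4 assembly factors overlapped between groups. Psmg1 had 3.62, 16.6 and 3.02 RPKM in CML, from 24, 12 and 6 reads, and 12.6, 8.39 and 9.67 RPKM in naive libraries, from 57, 64 and 82 reads. CML replicates 1 and 3 were below all naive libraries, and CML replicate 2 was above them. For Pomp, CML replicate 2 was at 11.3 RPKM, from 4 reads, while CML replicates 1 and 3 (49.6 and 54.4 RPKM) lay above the naive libraries (38.5, 38.3 and 41.9 RPKM). Psmg4 rested on 1 read in CML replicate 2, and its levels were 32.8, 3.24 and 14.1 RPKM in CML and 42.0, 21.8 and 16.8 RPKM in naive libraries. Psmg2 was at 13.7, 1.65 and 5.50 RPKM in CML and at 6.06, 15.3 and 16.0 RPKM in naive libraries. Without CML replicate 2, the log2 difference went from -0.98 to -0.36 for Psmg2, from -1.002 to -0.20 for Psmg4, from -0.31 to 0.39 for Pomp and from -0.69 to -1.36 for Psmg1. Adrm1 and Sem1 (listed as Shfm1), further subunits of the regulatory particle, were also lowest in CML replicate 2, at 3.68 and 136 RPKM.

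**Figure D5:**
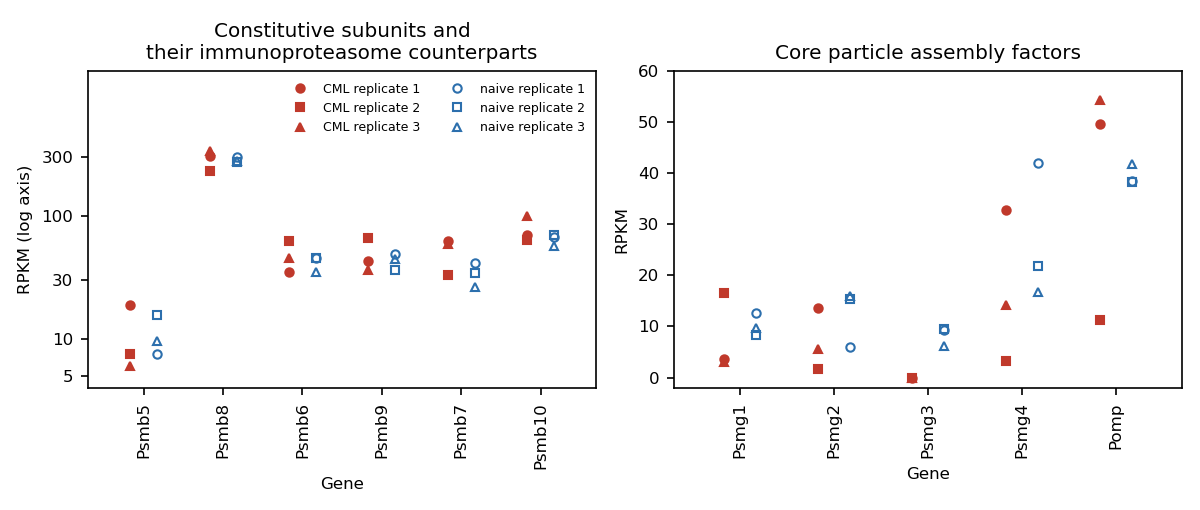
Left, level of the constitutive catalytic subunits Psmb5, Psmb6 and Psmb7, each followed by its immunoproteasome counterpart, in RPKM on a log axis. Right, level of the core particle assembly factors in RPKM on a linear axis, where Psmg3 is at 0 in the 3 CML libraries and at 6.11 to 9.58 RPKM in the naive libraries. Filled red symbols are CML and open blue symbols naive libraries.

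The promoters of the subunits are shown because genes of 1 complex are often regulated together, although 0 of these genes passed the adjusted threshold in limma and 1 (Psmd14) had an unadjusted p under 0.05. RefSeq promoters (GRCm38.p6, 250 bases before to 50 after the start site) were found for 29 of the 36 genes, not for Psma8, Psmb1, Psmb2, Psmb7, Psmc3, Psmd3 and Psmd7. Both strands were searched for 4 motifs, none of whose matches in these promoters overlapped a match of another motif. The core of the antioxidant response element, TGACNNNGC, which Nfe2l1 and Nfe2l2 bind together with small Maf proteins, was found in 5 of the 29 genes (17.2%), against 13.99% of all genes in the table. The holders were Psmb5, Psmb6, Psmc6, Psmd9 and Psmd12. CCAAT, the letters of NF-Y, was found in 12 of 29 genes (41.4%, against 41.1%), and TATAAA in 3 (10.3%, against 15.7%). CCGGAAG, a site of ETS factors, was found in 10 of the 29 genes (34.5%, against 9.93% of all genes), of which 9 were among the 17 regulatory genes and 1 (Psma6) among the 12 core genes with an entry. A match describes letters and is not a bound site.

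The stretches before the start sites of the 2 catalytic subunits with the antioxidant response element letters are given with those letters in capitals, at chr14:54617999-54618078 (minus strand) for Psmb5 and chr11:70525277-70525356 (plus strand) for Psmb6.
Psmb5: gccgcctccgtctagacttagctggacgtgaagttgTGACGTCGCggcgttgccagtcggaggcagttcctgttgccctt
Psmb6: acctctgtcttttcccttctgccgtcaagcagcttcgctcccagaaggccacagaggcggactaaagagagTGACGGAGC
These 2 genes differed by -0.10 and 0.14 on the log2(RPKM + 1) scale between CML and naive Tregs. The start sites are those of the promoter entries. The RefSeq gene of Psmb6 begins upstream of that site, at chr11:70525324, within the printed stretch.

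The ETS letters began within 60 bases before the start site in 7 of the 9 regulatory genes that hold them, and 100 and 125 bases before it in Psmc6 and Psmd4. The last 60 bases before the start are given for 6 of these genes, and not for Psmd13, where the letters begin 6 bases before the start on the forward strand and run past it. They are at chr12:100110142-100110201 (plus) for Psmc1, chr5:21786687-21786746 (plus) for the second promoter entry of Psmc2, chr16:20651592-20651651 (plus) for Psmd2, chr14:14120946-14121005 (minus) for Psmd6, chr11:80428555-80428614 (plus) for Psmd11 and chr11:107479468-107479527 (plus) for Psmd12, with the motif or its reverse complement in capitals.
Psmc1: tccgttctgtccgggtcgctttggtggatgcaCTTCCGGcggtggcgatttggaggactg
Psmc2: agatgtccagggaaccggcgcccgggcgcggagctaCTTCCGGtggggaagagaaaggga
Psmd2: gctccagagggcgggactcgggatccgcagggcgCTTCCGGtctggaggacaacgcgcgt
Psmd6: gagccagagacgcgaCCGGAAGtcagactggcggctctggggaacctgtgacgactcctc
Psmd11: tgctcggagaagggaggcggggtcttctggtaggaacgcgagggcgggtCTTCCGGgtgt
Psmd12: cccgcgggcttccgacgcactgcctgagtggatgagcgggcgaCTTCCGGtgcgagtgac
In 5 of these 6 stretches the letters lie within 28 bases of the start site and read as the reverse complement, and in Psmd6 they begin 45 bases before it. The differences of these 6 genes between CML and naive Tregs were between -0.20 (Psmd12) and 0.31 (Psmd6), and the groups overlapped in each. For Psmd2, the start site is that of its promoter entry, and its RefSeq gene begins upstream of the printed stretch, at chr16:20651122.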

How the data were processed

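BM Tregs of 3 CML and 3 naive mice were profiled with the SMART-Seq v4 kit and single-end reads on a NextSeq instrument. The authors used SeqMan NGen for assembly and ArrayStar for the analysis, and the submitters' processing notes name the builds GRCm38 and mm10. The sources do not name the unit of the deposited values, which were taken to be RPKM. A value of 0.001 stands for no reads and was set to 0. Library reads were estimated from the steps of small RNA features, and reads of a gene from GENCODE M21 coding lengths. Values were taken as whole within 0.02 reads plus 0.0001 per read, and 40.3% of 11485 coding features were whole in every library. Intervals and floors (3 reads) cover counting error only, since amplified reads are not independent molecules. Because the paper's tests need counts, limma 3.58.1 in R 4.3.3 was run on log2(RPKM + 1), with a trended prior and no replicate block, for the 13923 features with a mean of at least 1 RPKM, and p-values were adjusted over all of them. Fold changes on this scale understate those of low genes. Python 3.11.15 with pandas 2.3.3 and scipy 1.17.1 was used otherwise. The fit was tested on simulated data.

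The subunits, lists, motifs and tests were chosen with earlier results of these data known. Statistics are given for Psmb5, Psmb6 and Psmb7, for the 4 core and 4 regulatory genes with the smallest p, and for the 2 other pathway genes with the smallest p in each direction. Values are also given for the genes of extreme level and of the roles described, chosen after their values were seen where they fall outside this rule. The replicate numbers did not pair the mice. Alternatives covered the pseudocount, the filter, scaling, the variance prior, library weights, a replicate block and each library left out.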

Additional observations from a re-analysis of the deposited data

How the results depend on the processing

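No constitutive subunit passed the adjusted threshold under any of the 16 alternatives. The number of all features past it was 24 and became 0 with a pseudocount of 0.001, 1 without a filter, 54 under quantile normalization, 53 at a shared 75th percentile, 39 with the same median, 11 without the trend, 45 with library weights and 1 with the replicate block, and 0 to 29 with 1 library left out. Same-numbered mice deviated with correlations of -0.02 to 0.00, so that the block is given only here. At an unadjusted limma p under 0.05, 9.68% of all features passed in either direction in the fit described above. That share is not given for the alternatives, so the next counts of subunits cannot be set against it. Core genes at an unadjusted p under 0.05 went from 0 to 1 under quantile normalization, a shared 75th percentile, the same median or library weights (Psmb7 each time), and to 0 to 3 with 1 library left out. Without CML replicate 2 these were Psmb2 and Psmb7, and without CML replicate 3 they were Psma1, Psma6 (lower) and Psmb3. Regulatory genes went from 1 to 2 with the replicate block (Psmd10 and Psmd14), and to 0 to 2 with 1 library left out, with Psmd10 beside Psmd14 without CML replicate 3 or naive replicate 2, and 0 without naive replicate 3. The regulatory median rose from 0.00 to 0.15 with the same median, and was -0.0475 to 0.14 with 1 library left out, the highest without CML replicate 2. Psmg3 passed, as 1 other pathway gene instead of 0, at a shared 75th percentile, without the trend and with library weights, and was not tested at a mean of at least 5 RPKM. The difference of Psmb5 (-0.10) turned to 0.0877 with quantile normalization, 0.0413 with the same median, 0.23 with library weights, 0.05 without CML replicate 2, 0.20 without CML replicate 3 and 0.16 without naive replicate 2, with a range of -0.56 to 0.20 over the libraries left out. That of Psmb6 (0.14) turned to -0.0076 with library weights and -0.0731 without CML replicate 2, with a range of -0.0731 to 0.34 over the libraries left out. The cause of these changes was not tested. The other named genes kept their direction and side, but leaving out 1 library moved the difference to 0.28 (without CML replicate 2) to 1.12 (without CML replicate 3) for Psma1, 0.24 (without naive replicate 1) to 1.18 (without CML replicate 2) for Psmb2, 0.11 (without naive replicate 2) to 0.54 for Psma3, 0.39 to 0.84 for Psmb7, 0.55 (without CML replicate 2) to 1.19 for Psmd10, 0.22 (without naive replicate 1) to 0.49 for Psmc6, -0.29 to -0.03 (without CML replicate 2) for Psmd4, 0.04 (without CML replicate 3) to 0.36 for Psmb10, 0.23 to 0.43 for Txnl1 and -0.88 (without CML replicate 3) to -0.36 (without CML replicate 1) for Akirin2. CML replicate 2 had the fewest reads behind its values, with a median of 31 over the 29 subunits with whole reads.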
